A study of Mus musculus with 6 samples.

Results

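Creatine cycle thermogenesis is carried by 7 genes that were examined in subcutaneous white adipose tissue (scWAT): *Gatm*, *Gamt*, *Slc6a8*, *Ckb*, *Ckmt1*, *Ckmt2* and *Alpl*. They were chosen by symbol as the makers, importer, kinases and phosphatase of the cycle, with earlier results of these data known. All 7 were found among the 55401 genes counted, of which 16807 passed a filter on low counts. RNA of scWAT from 3 mice per group was sequenced. All mice were male, 8 weeks old and housed at room temperature, and the strains that gave the alleles were on C57BL/6 and mixed C57BL/6-129 backgrounds. Both groups carried floxed *Yap* and *Taz* alleles (Yapfl/fl/Tazfl/fl). The YT-AKO group also carried AdipoqCre, a recombinase driven by a promoter of mature adipocytes, and the control group, WT in the sample labels and YT-FF in the study's methods, had no Cre. The tissue also holds vessels, immune cells, nerves and stroma, which this promoter does not target, and in such bulk samples fewer cells of a type and less RNA per cell cannot be told apart.

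Creatine is made from arginine and glycine by AGAT (*Gatm*), methylated by GAMT (*Gamt*), and taken up from blood by the transporter SLC6A8. Creatine kinases charge it with a phosphate from ATP, and in thermogenic fat the phosphocreatine can be hydrolysed again without useful work, by tissue-nonspecific alkaline phosphatase (*Alpl*), so that ATP turnover and heat continue without UCP1. The brain-type kinase CKB acts in the cytosol and has also been placed at mitochondria of brown adipocytes, CKMT1 and CKMT2 sit between the mitochondrial membranes, and CKMT2 is the form of heart and skeletal muscle.

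The libraries held 17740987 to 21838493 counted fragments. TMM scaling factors were 1.07 to 1.16 in YT-FF and 0.777 to 0.955 in YT-AKO, with the lowest in YT-AKO 2, whose log2 CPM (counts scaled to library size with these factors) correlated with those of the other YT-AKO libraries at 0.934 and 0.937, against 0.972 between YT-AKO 1 and 3 (Pearson, across genes, which are not independent). *Yap1* gave 1622, 1300 and 1295 fragments in YT-FF 1 to 3 and 649, 492 and 529 fragments in the libraries labelled YT-AKO 1 to 3 (log2 fold change -0.98). *Wwtr1*, the gene of TAZ, had 1818, 1729 and 1918 against 3015, 2253 and 2716 (log2 fold change 0.89), so it went against the label, which the counts over all exons of the gene cannot resolve further. The paper reports that immunoblots showed less YAP and TAZ protein in scWAT of YT-AKO mice, a different measure from these RNA counts. Every direction below follows these labels. Adipocyte markers, from *Adipoq* to leptin, were present in all libraries. *Adipoq* lay at 1646 ± 304 CPM in YT-FF and 2222 ± 250 in YT-AKO (mean ± SD, n = 3). The sum of 8 such genes did not overlap, at 10566 to 15755 CPM in YT-FF and 17810 to 31615 in YT-AKO. Their median log2 fold change was 0.42. Of the 8, 2 were called higher, *Fabp4* and *Lipe*, beside 12.6% of all tested genes, but 0 without any 1 of the YT-FF libraries or YT-AKO 3. The part of adipocyte RNA in the changes below was not tested. The labels number the replicates without naming animals, so p-values measure the spread between these 6 libraries.

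Among the 7 genes, *Ckb*, *Gamt* and *Slc6a8* rose in the libraries labelled YT-AKO, with *Ckb* by about 5.12-fold in CPM. No gene of the cycle was called lower. *Gatm*, *Alpl* and *Ckmt2* were tested and not called, and *Ckmt1* was almost without counts and was not tested. Genes were called at a Benjamini-Hochberg-adjusted p under 0.05 in edgeR's quasi-likelihood test, by which 12.6% of all tested genes were higher and 9.01% lower. Thus 3 of the 6 creatine cycle genes tested were higher, and for the same 3 genes every YT-AKO library lay above every YT-FF library in CPM, as it did for 25.7% of all tested genes. The median log2 fold change was 1.01 over the 6 genes and -0.02 over all tested genes. At the study's stricter limits, with 0.01 for the adjusted p and a log2 change of more than 1, edgeR called 0 of the 7 genes, where 0.0892% of all genes were higher and 0.0357% lower, and 6852 genes had an edgeR p under 0.05 before adjustment. DESeq2 called *Ckb* and *Gamt* higher there and 0 of the 7 lower, beside 7.58% and 3.79% of all genes. Scaling by library totals alone turned the split of all calls from 2121 higher and 1515 lower to 1137 higher and 2828 lower and moved the median of all tested genes to -0.34.

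**Figure D1:**
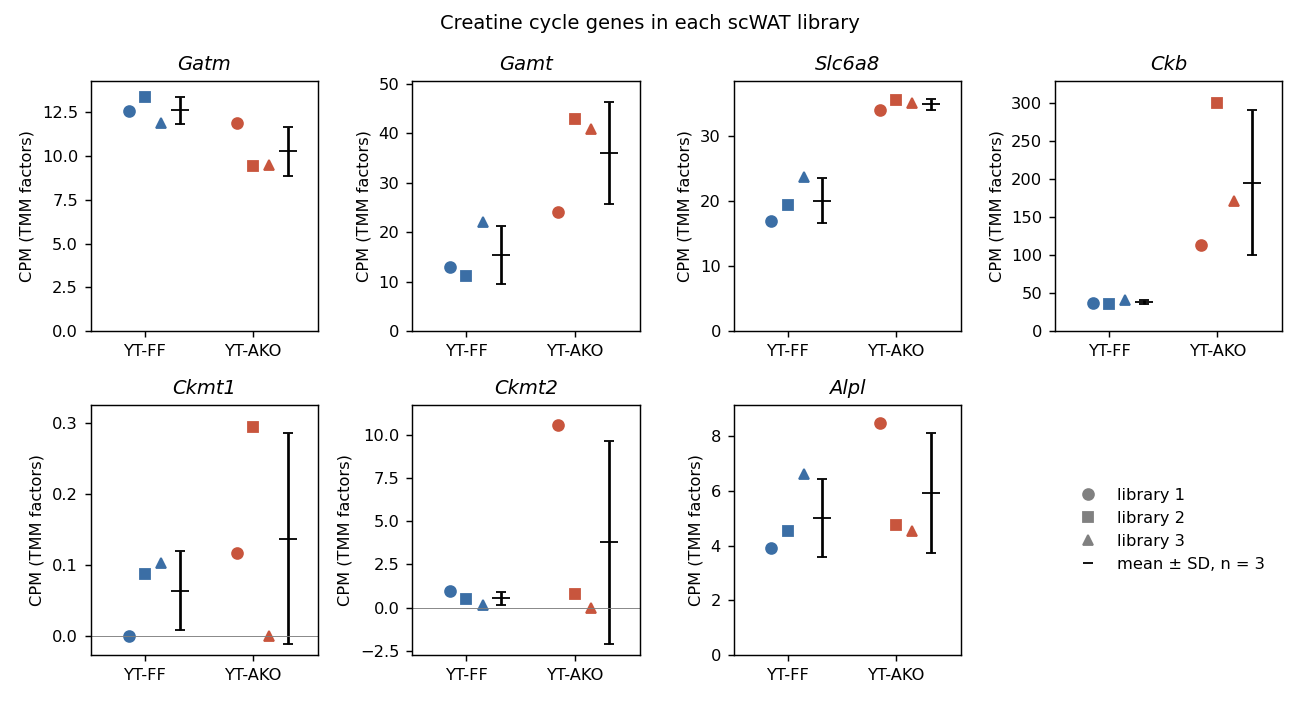
CPM (counts scaled to library size with TMM factors) of the 7 creatine cycle genes in each scWAT library. Symbols mark libraries 1 to 3 of YT-FF and of the group labelled YT-AKO, bars the mean ± SD (n = 3). *Gamt*, *Slc6a8* and *Ckb* do not overlap between the groups, *Ckmt1* has 0 to 5 counts, and the *Ckmt2* mean of the YT-AKO group rests on library 1 at 10.6 CPM.

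The genes of creatine synthesis differed from each other. *Gatm* (ENSMUSG00000027199, chromosome 2, 122594467 to 122611303 of mm10) encodes the first enzyme and gave 295, 305 and 231 fragments in YT-FF 1 to 3 and 205, 160 and 161 fragments in the libraries labelled YT-AKO 1 to 3. In CPM these were 12.6, 13.4 and 11.9 against 11.9, 9.42 and 9.50, and the groups met at the lowest YT-FF and the highest YT-AKO library. It changed by -0.30 on the log2 scale (standard error 0.192, adjusted p = 0.277 in edgeR). On the scale of TPM (counts divided by exon length and then scaled to the same total in each library), *Gatm* lay at 16.0 ± 1.67 in YT-FF and 8.40 ± 2.79 in YT-AKO without overlap (mean ± SD, n = 3; two-sided exact permutation test, p = 0.1, the smallest that 3 against 3 allow).

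*Gamt* (ENSMUSG00000020150, chromosome 10, 80258151 to 80261012) encodes the methyltransferase of the last step and gave 307, 253 and 430 fragments in YT-FF and 415, 729 and 693 fragments in the libraries labelled YT-AKO. In CPM these were 13.1, 11.1 and 22.1 against 24.1, 42.9 and 40.9. The groups did not overlap, and YT-FF 3 and YT-AKO 1 lay closest to each other. This was a log2 fold change of 1.22 (standard error 0.322, edgeR adjusted p = 0.0366), or 2.33-fold. In TPM the groups overlapped, with 40.2 ± 13.3 in YT-FF and 58.6 ± 16.3 in YT-AKO (mean ± SD, n = 3, exact permutation test p = 0.3). A correction for gene length, *Gamt* being short at 1444 exon bases, lowered the log2 fold change to 0.83 and ended the call (edgeR adjusted p = 0.0847), as did library totals alone (0.89, adjusted p = 0.0581) and leaving out YT-AKO 3 (1.13, adjusted p = 0.0742).

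Uptake was represented by *Slc6a8* (ENSMUSG00000019558, chromosome X, 73673150 to 73682502), the sodium- and chloride-dependent creatine transporter. It gave 397, 442 and 461 fragments in YT-FF and 584, 602 and 594 fragments in the libraries labelled YT-AKO. In CPM these were 16.9, 19.4 and 23.7 against 33.9, 35.5 and 35.1, so the YT-AKO libraries lay close together and above all YT-FF libraries. This was a log2 fold change of 0.80 (standard error 0.173, edgeR adjusted p = 0.0243), or 1.74-fold. In TPM it went from 14.5 ± 1.98 to 16.1 ± 3.64 with overlap (mean ± SD, n = 3, exact permutation test p = 0.6), and YT-AKO 2 had 11.9 TPM against 18.2 and 18.3 in YT-AKO 1 and 3. Scaling by library totals alone left a log2 fold change of 0.48 and ended the call (edgeR adjusted p = 0.0876).

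The kinase *Ckb* (ENSMUSG00000001270, chromosome 12, 111669361 to 111672338) had the highest mean TPM of the 7 genes in both groups, although its YT-FF range overlapped that of *Gamt*. It gave 872, 824 and 801 fragments in YT-FF 1 to 3 and 1958, 5104 and 2912 fragments in the libraries labelled YT-AKO 1 to 3. In CPM these were 37.1, 36.1 and 41.2 against 114, 301 and 172, so YT-FF was even, and the lowest YT-AKO library lay far above the highest YT-FF library. This was a log2 fold change of 2.36 (standard error 0.341, edgeR adjusted p = 0.0171), a fold of 5.12 with 4.04 to 6.48 at 1 standard error on each side. *Ckb* ranked 166 by log2 fold change and 133 by p among the 16807 tested genes. In TPM it rose 3.02-fold, from 50.03 ± 1.17 to 151 ± 37.4 (mean ± SD, n = 3, exact permutation test p = 0.1), again without overlap. YT-AKO 2 held the most on both scales, and without it the log2 fold change was 1.90 (edgeR adjusted p = 0.00158).

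The calls of these 3 genes were lost without YT-FF 1 or YT-FF 2, as were nearly all calls of the table. Some were also lost in other fits, given above and in the closing section. Without YT-FF 1, edgeR's adjusted p was 0.110 for *Ckb*, 0.145 for *Gamt* and 0.122 for *Slc6a8*, and 0.111, 0.145 and 0.125 were found when YT-FF 2 was left out. In these fits 0 genes of the whole table were called higher and 0 and 2 lower, and 4665 and 4507 had an edgeR p under 0.05 before adjustment. The log2 fold changes themselves ranged from 1.90 to 2.64 for *Ckb*, from 1.03 to 1.58 for *Gamt* and from 0.69 to 0.94 for *Slc6a8* over the 6 fits that each left out 1 library.

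The start of *Ckb* is shown because YAP and TAZ bind DNA through TEAD factors, whose core motif GGAATG lies in it, and that of *Gamt* because this gene rose as well and holds no such match. The 250 bases before the RefSeq start site were taken from GRCm38.p6, the assembly behind mm10, at chr12:111672339-111672588 and chr10:80261013-80261262, both on the minus strand and written 5′ to 3′, with the motif in capitals.
Ckb: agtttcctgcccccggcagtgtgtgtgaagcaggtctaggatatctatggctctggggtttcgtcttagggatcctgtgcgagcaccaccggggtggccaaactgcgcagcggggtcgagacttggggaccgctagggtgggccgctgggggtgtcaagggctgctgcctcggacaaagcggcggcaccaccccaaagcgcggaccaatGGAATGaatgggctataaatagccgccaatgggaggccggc
Gamt: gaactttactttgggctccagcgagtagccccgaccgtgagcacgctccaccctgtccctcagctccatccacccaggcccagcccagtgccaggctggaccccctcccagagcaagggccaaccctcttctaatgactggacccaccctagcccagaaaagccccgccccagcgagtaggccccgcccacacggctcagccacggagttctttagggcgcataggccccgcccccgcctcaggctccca

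The *Ckb* match covers bases -41 to -36 from the start site, on the strand of the gene. GGAATG or its reverse complement CATTCC was found in 12.6% of the 32851 promoter windows of this length, and in 2 of the 8 windows of the creatine cycle genes with an entry (6 of 7 genes), the other being in *Ckmt1* at -71 to -66. TCAAGGTCA, the response element of estrogen-related receptors, was in 0.387% of all windows, TTGCGCAA of C/EBP in 0.164% and TGACGTCA of CREB in 1.55%, and none was in the 8 windows. These are matches of letters and do not show binding. The paper reports that YAP and TAZ mutants unable to bind TEAD still lowered *S100b* expression in beige adipocytes. A role of TEAD at *Ckb* was not tested.

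In YT-FF the mitochondrial kinases were the scarcest of the 7 genes. *Ckmt1* (ENSMUSG00000000308, chromosome 2, 121357714 to 121363737), the ubiquitous form, gave 0, 2 and 2 fragments in YT-FF and 2, 5 and 0 fragments in the libraries labelled YT-AKO, and it failed the filter. A floor of 3 counts is 0.124 to 0.223 TPM for this gene, so it was under this floor in 5 of 6 libraries, YT-AKO 2 being the exception, and no fold is given. *Ckmt1* shares 0.401% of its exon bases with *Strc* on the other strand.

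*Ckmt2* (ENSMUSG00000021622, chromosome 13, 91853387 to 91876885), the sarcomeric form, gave 22, 11 and 3 fragments in YT-FF and 182, 13 and 0 fragments in the libraries labelled YT-AKO. In CPM these were 0.936, 0.482 and 0.154 against 10.6, 0.766 and 0, where a count of 0 in YT-AKO 3 allows up to 0.177 CPM. YT-AKO 1 alone stood high, and YT-AKO 3 was the lowest of all 6 libraries. The log2 fold change of 2.81 (standard error 1.48, edgeR adjusted p = 0.188) was not called, and without YT-AKO 1 it was -0.45 (adjusted p = 0.812). Its size also varied by method on all 6 libraries. It was 0.465 in limma-voom (adjusted p = 0.868) and 1.58 in edgeR with the replicate number as a block (adjusted p = 0.334). Of the exon bases of *Ckmt2*, 5.65% are shared with 1700119I11Rik on the other strand, and counting did not use strand.

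Some skeletal muscle transcripts, *Ckm* and *Myh4* among them, were highest in YT-AKO 1 and lowest in YT-AKO 3, as *Ckmt2* was. *Ckm* (ENSMUSG00000030399), the cytosolic kinase of muscle, gave 1032, 250 and 316 fragments in YT-FF and 6168, 318 and 26 fragments in the libraries labelled YT-AKO, and the fast myosin *Myh4* had 3743, 876 and 682 against 15239, 731 and 49. The summed level of the 24 muscle genes listed ran from 251 to 761 CPM in YT-FF and was 4803, 711 and 308 CPM in YT-AKO 1 to 3. For comparison, 12.6% of all tested genes were called higher and 9.01% lower. None of the 24 was at 0 in all libraries. Of the 20 that passed the filter, 1 was called higher, the actin *Acta1* (3083, 935 and 1589 counts against 19067, 5282 and 3343; log2 fold change 2.67, edgeR adjusted p = 0.0360), and 0 lower. *Acta1* differed from *Ckmt2* in YT-AKO 3, where it was at 197 CPM and above every YT-FF library. In YT-AKO 1 *Myh1* (4.82 CPM) and *Mb* (1.28 CPM) were close to their levels in YT-FF 1 (4.60 and 1.36 CPM), *Myh2* was at 0.116 against 2.60 CPM, and the summed level was lowest in YT-FF 2. DESeq2 called 3 genes of the list higher, and edgeR called 2 higher without YT-AKO 2, 4 without YT-AKO 3 and 0 without any 1 of the YT-FF libraries. Without YT-AKO 1, 1 was called higher and 2 lower, and the median log2 fold change of the list went from 1.65 to -0.86.

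*Ckmt2* made up 2.09%, 4.21% and 0.940% of the *Ckmt2* and *Ckm* counts in YT-FF 1 to 3 and 2.87%, 3.93% and 0% in the libraries labelled YT-AKO 1 to 3. The exact 95% binomial intervals, which cover counting error only, were 1.31 to 3.14%, 2.12 to 7.42% and 0.194 to 2.72% in YT-FF and 2.47 to 3.31%, 2.11 to 6.62% and 0 to 13.2% in YT-AKO. The intervals of YT-AKO 1 and YT-FF 1 overlapped, although their *Ckmt2* counts were 182 and 22. The log2 ratio of *Ckmt2* to *Ckm* was -5.49 ± 1.03 in YT-FF and -5.12 ± 0.585 in YT-AKO (mean ± SD, n = 3, two-sided exact permutation test p = 0.7). The log2 ratio of *Ckmt2* to *Ucp1*, the uncoupling protein of thermogenic fat, was -2.83, -2.88 and -5.77 in YT-FF and -3.76, -8.95 and -13.0 in YT-AKO (difference -4.75, exact permutation p = 0.2, with 0.5 added to each count). Without YT-AKO 1 this difference was -7.15, and without YT-AKO 3, whose value rests on a count of 0, it was -2.53.

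**Figure D2:**
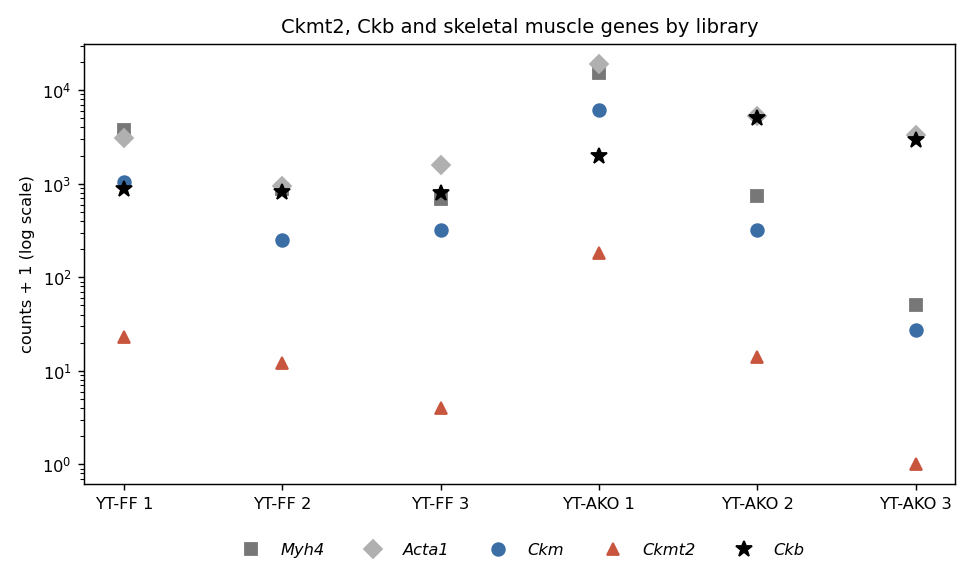
Counts plus 1, on a log axis, of *Ckmt2*, *Ckb* and the skeletal muscle genes *Ckm*, *Myh4* and *Acta1* in each library. *Ckmt2* lies under *Ckm* in every library, and both are highest in YT-AKO 1 and lowest in YT-AKO 3, while *Ckb* is at 2912 counts in YT-AKO 3, where *Ckm* has 26.

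*Ckm* did not run with *Ckb*. YT-AKO 3 had fewer *Ckm* counts than any YT-FF library and a *Ckb* level of 172 CPM, and YT-AKO 1, with the most *Ckm*, had the lowest *Ckb* level of its group. Other genes of the muscle list did separate the groups as *Ckb* did, *Acta1* with 41.0 to 131 CPM in YT-FF and 197 to 1107 in YT-AKO, and the slow troponin *Tnnc1* with 0.823 to 1.053 against 1.92, 4.77 and 1.48 CPM in YT-AKO 1 to 3, the highest in YT-AKO 2 (log2 fold change 1.57, edgeR adjusted p = 0.0622). The part of muscle RNA in the change of *Ckb* was not tested. Without YT-AKO 1 the log2 fold change was 2.64 for *Ckb*, 1.45 for *Gamt* and 0.83 for *Slc6a8*, and all 3 were called (edgeR adjusted p = 0.0252, 0.0282 and 0.0360).

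The 4 creatine kinase genes together came to 110, 65.7 and 72.1 TPM in YT-FF and 473, 195 and 163 TPM in the libraries labelled YT-AKO. The groups did not overlap (82.5 ± 23.8 against 277 ± 171, mean ± SD, n = 3, two-sided exact permutation test p = 0.1), but the difference of 194 TPM was 96.3 without YT-AKO 1. Their makeup varied widely among the YT-AKO libraries. *Ckm* took 72.6% of the sum in YT-AKO 1 and 0.879% in YT-AKO 3, against 22.7% to 52.9% in YT-FF. *Ckb* took 93.6% and 99.1% in YT-AKO 2 and 3 and 23.2% in YT-AKO 1, against 44.9% to 75.2% in YT-FF. The mitochondrial kinases took 1.70 ± 0.844% in YT-FF and 1.599 ± 2.29% in YT-AKO (exact permutation p = 0.9). *Ckm* shares 15.5% of its exon bases with A930016O22Rik on the other strand.

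**Figure D3:**
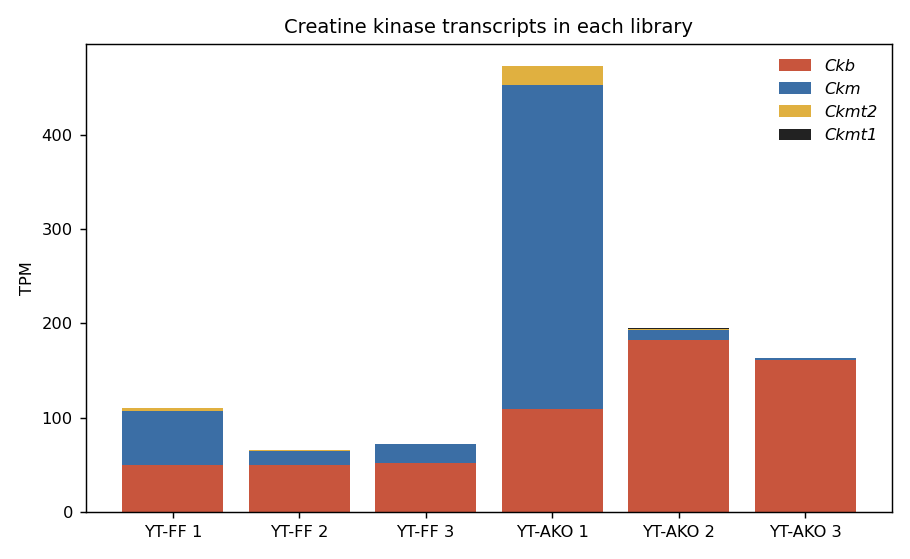
TPM of the creatine kinase genes in each library, stacked as *Ckb*, *Ckm*, *Ckmt2* and *Ckmt1*. *Ckb* makes up 49.3 to 51.4 TPM in YT-FF and 110 to 182 TPM in the libraries labelled YT-AKO, and *Ckm* is the larger part of YT-AKO 1.

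*Alpl* (ENSMUSG00000028766, chromosome 4, 137741733 to 137796384), the phosphatase proposed to close the cycle, gave 92, 103 and 129 fragments in YT-FF and 146, 81 and 77 fragments in the libraries labelled YT-AKO. In CPM these were 3.91, 4.52 and 6.63 against 8.48, 4.77 and 4.55, and the groups overlapped, with YT-AKO 1 highest. The log2 fold change of 0.24 (standard error 0.343, edgeR adjusted p = 0.621) was not called and was -0.06 with library totals alone and -0.10 without YT-AKO 1. The other alkaline phosphatase genes, *Alpi*, *Akp3* and *Alppl2*, were at 0 counts in all 6 libraries. *Phospho1*, which encodes another phosphatase, had 23, 17 and 21 counts against 55, 5 and 66 (log2 fold change 1.39, standard error 0.771, edgeR adjusted p = 0.208).

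In TPM, which compares genes per length, the order in YT-FF was *Ckb* (50.03), *Gamt* (40.2), *Gatm* (16.0), *Slc6a8* (14.5), *Alpl* (4.70), *Ckmt2* (1.36) and *Ckmt1* (0.0959). The ranges of *Ckb* and *Gamt* overlapped, as did those of *Gatm* and *Slc6a8*, and all other neighbours in this order were apart. In the libraries labelled YT-AKO, *Ckb* (151) stood apart from *Gamt* (58.6), and *Slc6a8* (16.1) lay above *Gatm* (8.40) without overlap. *Ckmt2* (6.92, carried by YT-AKO 1) overlapped *Gatm* and *Alpl* (3.67).

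Of 26 neighbouring genes of the pathway, 24 passed the filter. Their median log2 fold change was 0.69, against 1.70 for the 27 respiratory subunits described below. Of the 24 neighbouring genes, 10 were called higher and 1 lower, beside 12.6% and 9.01% of all tested genes. Without YT-FF 1 or YT-FF 2, 0 were called higher and 0 lower, and 4 were called higher without YT-FF 3 and 6 without YT-AKO 3. The adenine nucleotide carriers *Slc25a4* and *Slc25a5*, which bring ATP out of the matrix, rose by log2 1.26 and 0.93 (edgeR adjusted p = 0.0200 and 0.0205), the phosphate carrier *Slc25a3* by 0.72, and the outer-membrane channels *Vdac2* and *Vdac3* by 0.68 and 0.85, while *Vdac1* was at 0.30 (adjusted p = 0.385). *Ak1*, a kinase that carries phosphate between adenine nucleotides, rose by log2 1.54 (edgeR adjusted p = 0.0183), and its relatives *Ak3* (0.23) and *Ak4* (0.70) were not called.

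On the side of arginine, *Slc7a1*, the main importer of cationic amino acids, fell by 1.08 on the log2 scale (29.6 ± 2.03 against 14.0 ± 3.10 CPM, mean ± SD, n = 3; edgeR adjusted p = 0.0195). The argininosuccinate lyase *Asl*, which releases arginine, rose by log2 0.88 (adjusted p = 0.0422 in edgeR), and *Ass1* was at -0.27 and *Oat*, an ornithine aminotransferase, at 0.15, neither called. *Arg1* and *Arg2* had 0 to 16 counts and were not tested. On the side of the methyl donor that GAMT uses, *Ahcy*, which clears S-adenosylhomocysteine, rose by log2 0.57 (edgeR adjusted p = 0.0395) and the phosphatidylethanolamine methyltransferase *Pemt* by 1.33 (adjusted p = 0.0271), and *Mat2a*, *Mat2b* and *Gnmt* were not called. The creatine exporter *Slc16a12* was at -0.23 (adjusted p = 0.667).

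**Figure D4:**
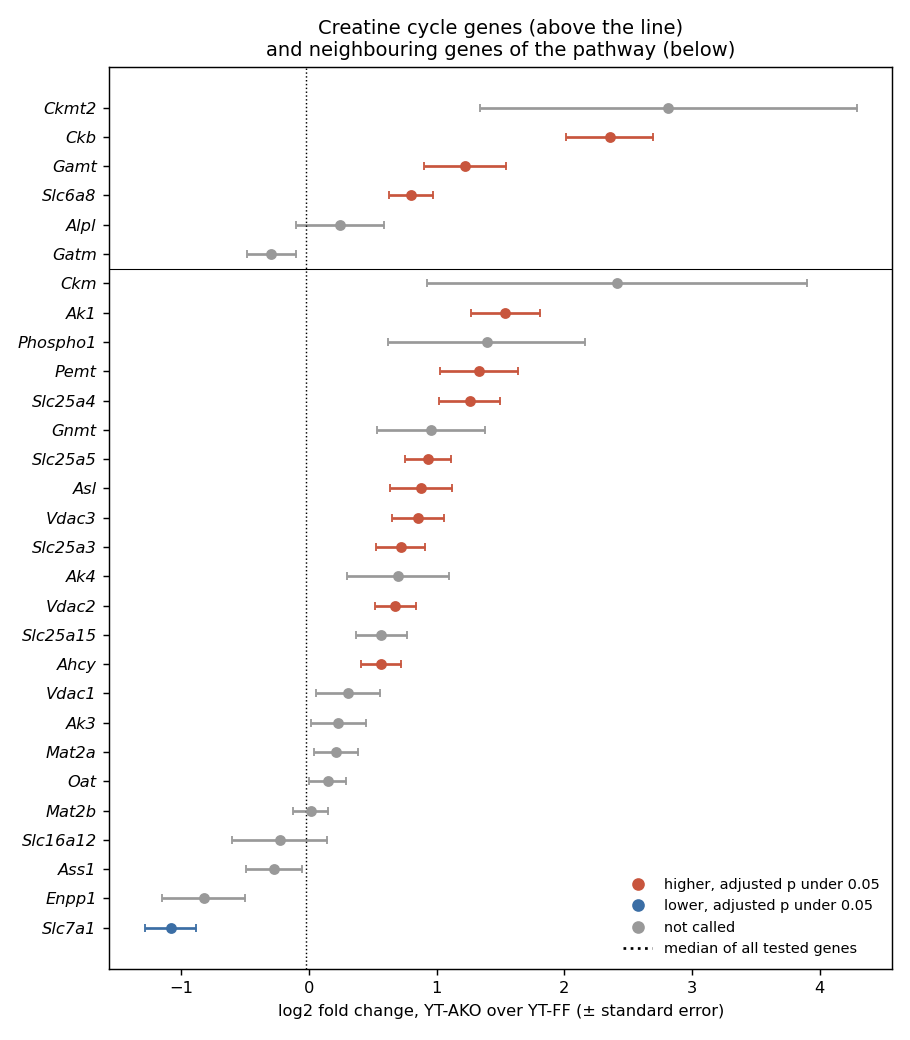
Log2 fold change ± standard error (edgeR) of the 6 tested creatine cycle genes, above the line, and of tested neighbouring genes, below it. Red marks genes called higher, blue lower and grey those not called, and the dotted line is the median of all tested genes at -0.02. *Ckmt2* and *Ckm* have the widest errors.

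Thermogenic and respiratory genes served as reference, beside 12.6% of all tested genes called higher and 9.01% lower. Of 10 thermogenic genes 7 were called higher and 0 lower (median log2 fold change 3.12), among them *Ucp1* by log2 5.27 and *Elovl3* by 5.90, while *Ppargc1a*, *Prdm16* and *Cpt1b* were not called. Of 27 nuclear subunits of the respiratory chain 25 were called higher and 0 lower (median 1.70). Both counts were 0 without YT-FF 1 or YT-FF 2. Other cycles that can work without UCP1 gave 3 genes higher and 1 lower of 7 (median -0.19), but 0 higher and 0 lower without any 1 of the YT-FF libraries, and 1 higher and 2 lower without YT-AKO 3. The genes higher were the glycerol kinase *Gk* (log2 1.32), *Dgat1* (0.68) and the lipase *Pnpla2* (0.79), all of triglyceride cycling, and the calcium release channel *Ryr2* fell by 1.99 on the log2 scale, whereas the calcium pump *Atp2a2* was at -0.19 (edgeR adjusted p = 0.589).

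Within libraries, *Ckb* lay higher relative to the mean of the respiratory subunits, and lower relative to *Ucp1*, in YT-AKO than in YT-FF. Single subunits changed as much, such as *Ndufa1* (log2 fold change 2.39) and *Cox5b* (2.33) against 2.36 for *Ckb*. The log2 ratio of *Ckb* to the mean of the 27 subunits was -2.07, -2.04 and -2.27 in YT-FF and -1.82, -1.06 and -1.27 in the libraries labelled YT-AKO. This is a difference of 0.74, without overlap (two-sided exact permutation test, p = 0.1, n = 3 per group). The ratios to *Ucp1* and *Gamt* were added after the values were seen. *Ckb* to *Ucp1* went from 2.60 ± 0.624 to -0.41 ± 0.0810, a difference of -3.01, and *Ckb* to *Gamt* from 1.37 ± 0.420 to 2.37 ± 0.386, a difference of 1.004 (mean ± SD, n = 3, each without overlap and with an exact permutation p of 0.1).

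**Figure D5:**
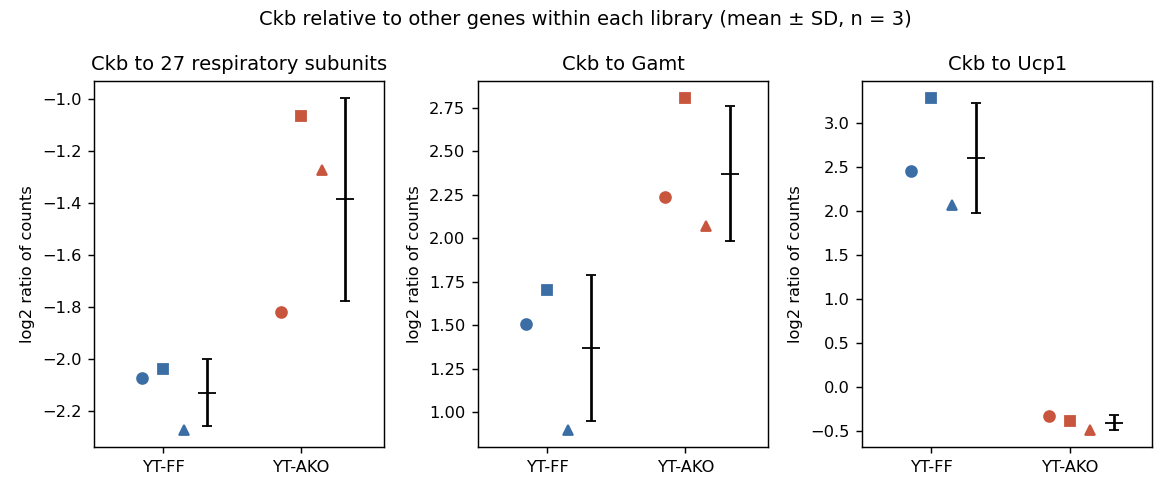
Log2 ratio of *Ckb* counts to those of 27 respiratory subunits (mean of their log2 counts), of *Gamt* and of *Ucp1* within each library, with 0.5 added to each count. Points are libraries and bars the mean ± SD (n = 3), and the axes do not start at 0. The libraries labelled YT-AKO lie above YT-FF in the first and second panels and below it in the last.

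The genes whose log2 CPM ran most like those of the members over the 6 libraries are given as a description. For *Ckb* they were *Mospd3* (Pearson r = 0.999) and *Armc6* (0.999), and 1330 tested genes had an r over 0.95 with it. These libraries share the 2 groups, so any gene that differs between the groups gains a high r. For *Slc6a8* they were *Cebpg* (0.998) and *Tsc22d1* (0.997), for *Gamt* *Cryl1* (0.999) and *Tcta* (0.996), for *Gatm* *Tcp11l2* (0.995) and *Serpinb9* (0.992), and for *Alpl* *Gramd1b* (0.982) and *Spry1* (0.968). For *Ckmt2* they were 2 genes of skeletal muscle, *Ryr1* (0.983) and *Mylpf* (0.975), both members of the muscle list, and only 30 tested genes passed an r of 0.95.

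Markers of other cells were summed in each library because the kinases and *Alpl* are expressed outside adipocytes too. The calls given with them stand beside 12.6% of all tested genes called higher and 9.01% lower. Summed CPM did not overlap for macrophages (475 to 542 in YT-FF, 815 to 1128 in YT-AKO, 2 of 6 genes higher) and endothelium (578 to 596 against 447 to 539, 1 of 6 lower). They overlapped for smooth muscle (119 to 152 against 128 to 189), Schwann cells (272 to 336 against 219 to 332), B cells (851 to 986 against 518 to 868, 2 of 5 lower), neutrophils (2.62 to 18.3 against 9.86 to 21.7), epithelium (4.01 to 5.31 against 4.37 to 5.81), and fibroblasts and progenitors (2743 to 3594 against 3328 to 5064, 2 of 7 higher and 1 lower). Sums also overlapped for sympathetic neurons (3.24 to 4.43 against 2.79 to 4.77) and the brown depot list (71.2 to 105 against 75.8 to 83.3). Most of the latter was *Epsti1*, with means of 85.2 CPM in YT-FF and 76.3 in YT-AKO. *Th* and *Dbh* of sympathetic neurons, *Zic1* of the brown depot and *Krt5* of epithelium were at 0 in all libraries. The paper reports denser TH-immunostained innervation in YT-AKO scWAT, a different measure from these RNA counts. Without YT-FF 1 or YT-FF 2 none of these genes was called by edgeR. Without YT-AKO 2, 5 B cell genes were called lower, 5 fibroblast genes higher and 2 Schwann cell genes lower. The endothelial call was also lost without YT-FF 3 or YT-AKO 3, and without YT-AKO 3 an endothelial gene was called higher instead. Of the 6 endothelial genes, 2 had a positive log2 fold change, *Emcn* (0.63) and *Vwf* (0.46), neither called. Fibroblast genes had 0 calls without YT-FF 3 and 1 higher and 0 lower without YT-AKO 3. The part of these cells in the changes of *Ckb*, *Gamt* and *Slc6a8* was not tested.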

How the data were processed

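RNA-seq libraries of 6 mice were used, 3 a group, grouped by sample title. The authors used HISAT2 to map paired-end reads on mm10 and counted fragments on exons of GENCODE vM25 with featureCounts 2.0.1, unstranded, leaving out multi-mapping and multi-overlapping fragments. The deposited values are raw counts per gene, which carry no molecular identifiers. Of 55401 gene identifiers, 55141 had a symbol.

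Counts were tested in R 4.3.3 with edgeR 4.0.16: TMM, filterByExpr (minimum count 10, minimum total 15), quasi-likelihood test and Benjamini-Hochberg adjustment. Standard errors are the log2 fold change over the square root of F. TPM used the exon lengths in the files, and CPM the TMM factors. The biological coefficient of variation was 0.288. Alternatives were DESeq2 1.42.0, limma-voom 3.58.1, other scalings and filters, robust estimation, a gene length spline with 6 degrees of freedom, the replicate number as a block, and each library left out. After the data were seen, the length correction without YT-AKO 2, 2 ratios and the share of *Ckmt2* in *Ckmt2* plus *Ckm* were added. edgeR, DESeq2 and limma-voom were tested on simulated counts.

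The 7 genes and the 17 lists were chosen with earlier results of these data known. Named genes were the members, the 2 genes most alike to each (mean of at least 5 CPM) and list members as examples, and 1 gene of the lists is not reported here. Neither promoter windows beyond the start site nor protein sequences were used here.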

Additional observations from a re-analysis of the deposited data

How the results depend on the processing

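Precision is limited by 3 libraries per group and, for *Ckmt1* and *Ckmt2*, by counts near 0. The number of creatine cycle genes called higher was 3 with edgeR, DESeq2, limma-voom, DESeq2 size factors, upper-quartile factors, no filter, the stricter filter and robust estimation, 2 with the length correction, also without YT-AKO 2, and 1 with library totals alone. It was 0 with the replicate block, with or without the length correction, and ranged from 0 to 3 with each library left out. None was called lower in any of these fits. The block took all calls of the table to 24 higher and 9 lower (5806 at an edgeR p under 0.05 before adjustment) and gave log2 fold changes of 2.24 for *Ckb*, 1.24 for *Gamt* and 0.81 for *Slc6a8*. The labels do not say whether equal numbers mark pairs. Deviations of same-numbered libraries from their group means correlated with r = 0.126, -0.118 and -0.0893. YT-FF 1 correlated best with its own number, and YT-FF 2 and YT-FF 3 did not. With 3 libraries per group these values cannot exclude a pairing. The neighbouring genes called higher fell to 4 with library totals alone and 0 with the replicate block and ranged from 0 to 12 with each library left out. Those called lower were 2 and 0 in these fits and 0 to 3 with each library left out, and the median of the list was 0.36 with library totals alone. The log2 fold change turned sign for *Alpl* with library totals alone (-0.058). With each library left out it ranged from -0.449 to 3.516 for *Ckmt2* and from -0.096 to 0.495 for *Alpl*, with the lowest value of both without YT-AKO 1. With each library left out, the share of the mitochondrial kinases differed by -1.42 to 0.698 percentage points, the log2 ratio of *Ckmt2* to *Ckm* by -0.14 to 0.89, to *Ckb* by -4.11 to 0.43 and to the respiratory subunits by -3.15 to 1.12. The causes were not tested. With 3 against 3 libraries no exact permutation test could pass 0.05. *Alpl* and *Ckmt2* were not called, and no called result of a creatine cycle gene changed direction in these alternatives.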
